A study of Mus musculus with 4 samples.

Results

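The transcripts of 38 genes of glycolysis and of the response to low oxygen were followed in mouse Th2 cells cultured with or without the thioamide compound SH-2251. The list was drawn up by gene name and function, and holds 2 glucose transporters, 14 enzymes of the glycolytic chain, 2 regulators of phosphofructokinase, 5 genes of lactate and pyruvate handling, 3 genes of oxygen sensing and 12 further genes known to respond to hypoxia. All 38 had a probe, out of 18539 genes that could be named on the arrays, and all 38 were well above background on all 4 arrays. The probe filter therefore removed none of them.

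Glycolysis splits glucose into pyruvate in the cytosol, and T cells turn to it when they are activated and divide, exporting much of the product as lactate. Many of its genes are also targets of hypoxia-inducible factor (HIF), a transcription factor whose alpha subunit is marked for destruction by oxygen-dependent prolyl hydroxylases (the Egln proteins). The transcription factor Myc and the kinase mTOR act on the same genes, so that antigen receptor signals reach them also when oxygen is plentiful.

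The 4 conditions were each hybridised to 1 Agilent whole mouse genome array with a single dye, namely control resting, SH-2251 resting, control restimulated and SH-2251 restimulated. All cells came from the spleens of female C57BL/6J mice and were grown for 2 days on anti-TCR-β (3 µg/ml) and anti-CD28 (1 µg/ml) with 10 ng/ml of IL-4 and 2.5 ng/ml of IL-2, and then for a further 3 days. Restimulated cells received anti-TCR-β for 4 h before RNA was taken. The labels give SH-2251 at 1 µM in the first phase and 1 mM in the second, a dose that differs from the one in the study's methods, and they name CD4 T cells where the methods name naïve CD4 T cells. All 4 arrays lay on 1 slide and were read in 1 scan.

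Levels are log2 intensities minus the array's 75th percentile, which lay between 499 and 614 intensity units. Differences between arrays are on the same log2 scale, where 1 is 2-fold. Each condition had 1 array, so there was no replicate check, and no test was run. Precision is limited by the number of arrays. A technical SD is given for differences, computed from the error that the scanner software attached to each spot, and it covers neither cultures nor animals. It was 0.204 to 0.209 for every member, so it was nearly a constant of the software and was not measured from repeated spots. On single arrays the median SD between repeated spots was 0.082 to 0.107, over 229 probes. In such bulk RNA, fewer cells of a type and less RNA per cell cannot be told apart.

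The labels were checked first. Of 10 genes known to follow antigen receptor signals, 8 were at least 2-fold higher in the restimulated control cells and 9 in the restimulated SH-2251 cells, led by Il3 (a bound, since it was not above background in resting cells), Nr4a1, Il13, Egr2 and Il4. All 6 T cell markers and all 6 Th2 markers were above background on every array. All 6 Th2 markers were lower with SH-2251 in both states, 4 of them by at least 2-fold in resting and 3 in restimulated cells. Il5, Il1rl1 and Maf were at least 2-fold lower in both, whereas Gata3, the master regulator of Th2 cells, showed differences of -0.17 (resting) and -0.03 (restimulated).

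**Figure D1:**
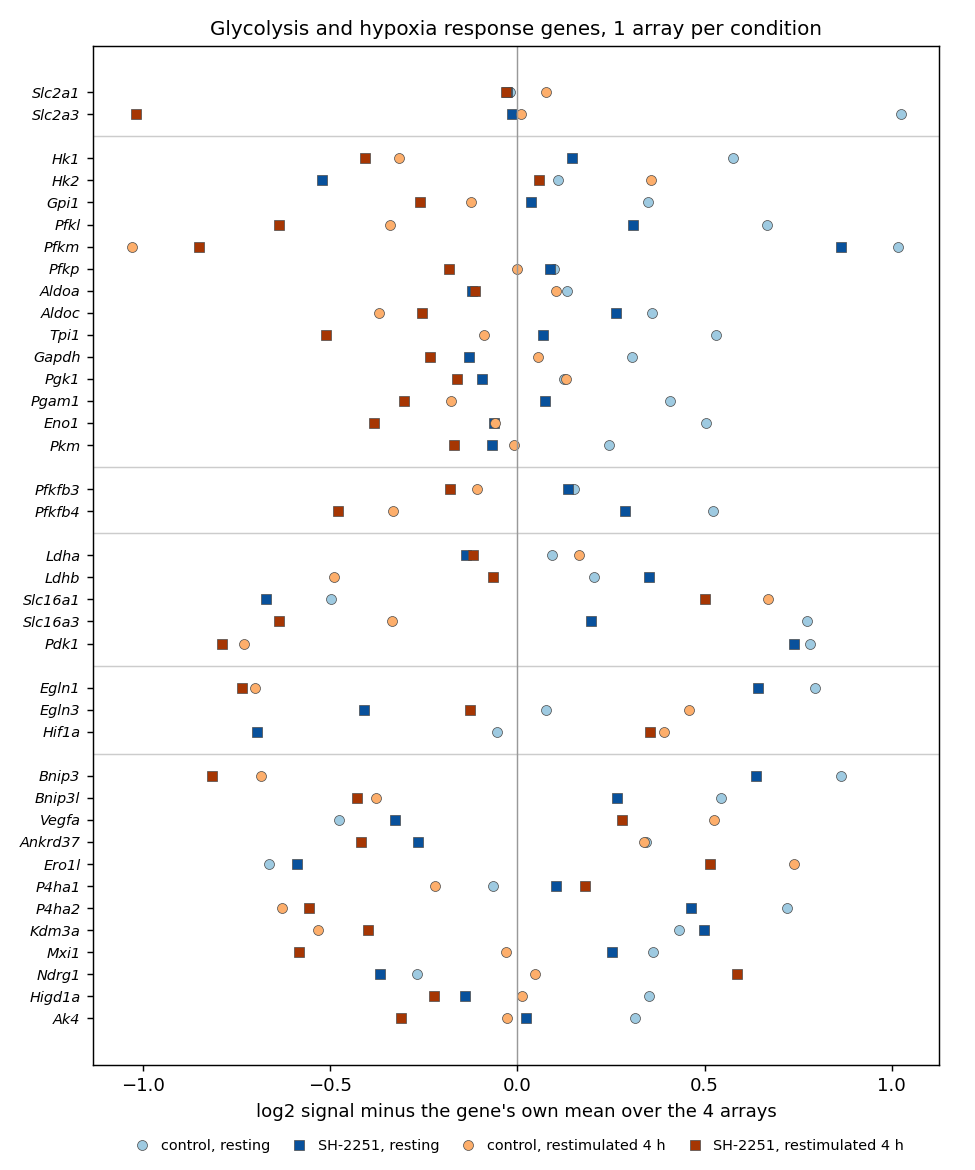
Level of each of the 38 genes on each of the 4 arrays, as the log2 signal minus the gene's own mean over the arrays, grouped by role (from the top: glucose transport, glycolytic enzymes, phosphofructokinase regulators, lactate and pyruvate handling, oxygen sensing, other hypoxia genes). Each point is 1 array. The points of Slc2a3, with levels from 5.65 in control resting to 3.60 in SH-2251 restimulated cells, spread widely, while those of Slc2a1 (4.54 to 4.65) lie close together.

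With SH-2251 most of the genes were slightly lower, and 1 of them was lower by 2-fold. In resting cells 33 of 38 were lower than in the control and 5 higher, with a median difference of -0.24, beside a median of -0.06 over 12684 genes compared, of which 57.5% were lower. After restimulation the corresponding counts were 31 and 7, with -0.16 as the median, beside -0.06 over 12623 genes, of which 57.8% were lower. At least 2-fold lower was 1 member in resting cells, where 2.9% of all genes were, and 1 in restimulated cells, where 2.78% were. No member was at least 2-fold higher, against 2.26% and 2.65% of all genes. In either direction 5.16% of all genes in resting and 5.43% in restimulated cells were past 2-fold. The members' count past 2-fold was thus not above the background, and the difference of the list from the rest lay in small shifts, mostly of one sign. Bright genes in general were lower more often. At a mean log2 level of 4 to 6, which held 14 members, 72.0% of all genes were lower in resting and 67.3% in restimulated cells. Above 6, which held 7 members, 84.2% and 76.3% were. The 2 comparisons use different arrays, and 29 of the 38 were lower in both and 3 higher in both (Ldhb, P4ha1 and Kdm3a). The shares of all genes lower in both or higher in both were not counted. The 2 differences shared a sign in 84.2% of members and in 77.1% of 11518 genes above background on all 4 arrays.

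The single member past 2-fold was Slc2a3, which encodes the high-affinity glucose transporter GLUT3. The gene had 1 named probe, with 1 spot on each array, so no second probe could be compared. Its log2 level was 5.65 in control resting cells, 4.61 in SH-2251 resting cells, 4.63 in control restimulated cells and 3.60 in SH-2251 restimulated cells. It was 2.05-fold lower with SH-2251 in resting cells (difference -1.04, technical SD 0.204) and 2.04-fold lower in restimulated cells (-1.03). Both restimulated arrays were also lower than their resting counterparts, by 1.01 on the log2 scale in either treatment. The level was thus highest in control resting cells and lowest in SH-2251 restimulated cells, and the middle arrays, SH-2251 resting and control restimulated, differed by less than the technical SD. Counted from the largest decrease with SH-2251, it ranked 347 of 12684 genes in resting and 330 of 12623 in restimulated cells. The value lies close to the 2-fold limit. It did not reach that limit when arrays were centred on the median or quantile-normalized, or after removal of the trend with signal. The same held after normexp background correction, which was followed by quantile normalization (-0.91 at the least over these settings).

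Slc2a1, which encodes GLUT1, the transporter that activated T cells are known for, did not show this pattern. Its log2 level was 4.55 in control resting cells, 4.54 in SH-2251 resting cells, 4.65 in control restimulated cells and 4.54 in SH-2251 restimulated cells. All 4 arrays lay within the technical SD of a difference.

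**Figure D2:**
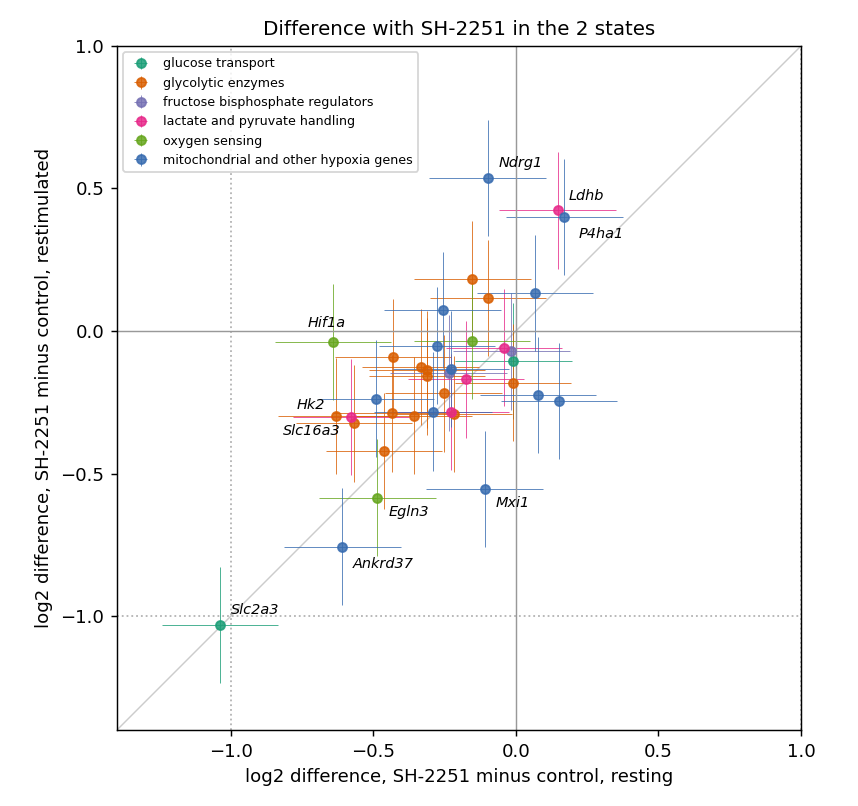
Difference of each gene between SH-2251 and control cells, in resting cells (horizontal) and restimulated cells (vertical), on the log2 scale and coloured by role. Bars show 1 technical SD, not replicate error, and dotted lines mark 2-fold. Most points lie to the lower left of the origin at less than 2-fold, with Slc2a3 alone past 2-fold in both states.

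All 14 glycolytic enzymes were lower with SH-2251 in resting cells, with a median difference of -0.32, and 12 of 14 in restimulated cells, with a median of -0.20. Of all genes 57.5% and 57.8% were lower, with higher shares among bright genes, as given above. None of the 14 enzymes reached 2-fold, past which 5.16% and 5.43% of all genes lay. The differences in resting cells ran from -0.01 to -0.63, so that 3 of them (Pfkp, Aldoc and Pfkm) were no larger than the technical SD. Hk2, the inducible hexokinase that traps glucose in the cell, had log2 levels of 4.37 in control resting, 3.74 in SH-2251 resting, 4.62 in control restimulated and 4.32 in SH-2251 restimulated cells. It differed by -0.63 and -0.30. Hk1, the other hexokinase, had levels of 5.99, 5.56, 5.10 and 5.01 in the same order, and differed by -0.43 and -0.09. For Hk1, 5 probes were above background, and in resting cells all 5 gave a difference between -0.47 and -0.41. In restimulated cells the same probes ran from -0.46 to 0.10 and did not share a sign.

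Enzymes of the middle of the chain were lower too. Tpi1, which interconverts the triose phosphates, had log2 levels of 7.39, 6.92, 6.77 and 6.35 in control resting, SH-2251 resting, control restimulated and SH-2251 restimulated cells, with differences of -0.46 and -0.42. Gapdh, which oxidizes triose phosphate and is often used as a loading control, had levels of 8.26, 7.83, 8.01 and 7.72, with differences of -0.44 and -0.29. Both were lower with the compound in each state.

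Eno1, the enolase of most tissues, had levels of 3.53, 2.96, 2.97 and 2.64 in that order, with differences of -0.57 and -0.32. For Gpi1, which isomerizes glucose 6-phosphate and whose probe was spotted 10 times, the differences were -0.31 and -0.13, and the SD between its spots was 0.020 to 0.037. Pgk1, which makes ATP from the product of Gapdh and was also spotted 10 times, differed by -0.22 and -0.29, with SDs between spots of 0.040 to 0.054. For these probes the spread between spots was smaller than the software's error estimate.

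Aldoa, the main aldolase, differed by -0.25 and -0.22, Pgam1, a phosphoglycerate mutase, by -0.33 and -0.13, and Pkm, the pyruvate kinase of dividing cells, by -0.31 and -0.16. Of the phosphofructokinase subunits, Pfkl differed by -0.36 and -0.30, Pfkp by -0.01 and -0.18, and Pfkm by -0.15 and 0.18. Aldoc, a second aldolase, differed by -0.10 and 0.12, so that Pfkm and Aldoc were not lower in restimulated cells. There the second probe of Pfkp gave 0.08, and Pkm reached 0.04 with normexp. The kinases that set the level of the fructose bisphosphate that activates phosphofructokinase differed by -0.02 and -0.07 (Pfkfb3) and by -0.24 and -0.15 (Pfkfb4). The other probes of Pfkfb3 gave -0.51 and -0.79 in restimulated cells.

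Of the lactate and pyruvate genes, Slc16a3, which encodes the lactate exporter MCT4, had log2 levels of 6.50 in control resting, 5.92 in SH-2251 resting, 5.39 in control restimulated and 5.09 in SH-2251 restimulated cells. Its differences with SH-2251 were -0.58 and -0.30. Ldha, the subunit of lactate dehydrogenase that dominates in glycolytic cells, had levels of 7.94, 7.71, 8.01 and 7.73, and differed by -0.23 and -0.28. Ldhb, the other subunit, had levels of 2.87, 3.02, 2.18 and 2.60 and was the only gene of this group that was higher, by 0.15 and 0.42. Slc16a1, which encodes the monocarboxylate transporter MCT1, differed by -0.17 in both states, and Pdk1, a kinase that shuts pyruvate dehydrogenase off, by -0.04 and -0.06.

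The 3 oxygen sensing genes differed in their pattern. Hif1a, the regulated subunit of HIF-1, had log2 levels of 4.34 in control resting, 3.70 in SH-2251 resting, 4.79 in control restimulated and 4.75 in SH-2251 restimulated cells. It was lower with SH-2251 in resting cells (-0.64) and level in restimulated cells (-0.04), a difference between the states of 0.60 with a technical SD of 0.289. Egln3, a prolyl hydroxylase that HIF itself induces, had levels of 4.66, 4.18, 5.05 and 4.46, and differed by -0.49 and -0.58. Egln1, the main hydroxylase that acts on HIF-1 alpha, differed by -0.15 and -0.03.

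Among the other hypoxia genes, 8 of 12 were lower with SH-2251 in resting and 8 of 12 in restimulated cells, with medians of -0.17 and -0.18. Of all genes compared, 57.5% and 57.8% were lower, with a median of -0.06 in each state. The counts were thus little above the share over all genes. Ankrd37, a small ankyrin repeat protein induced by HIF-1, was lower in both. Its levels were 0.83 in control resting, 0.22 in SH-2251 resting, 0.82 in control restimulated and 0.07 in SH-2251 restimulated cells, so that the SH-2251 arrays lay below both control arrays. Ndrg1, a stress-responsive gene, had levels of 4.91, 4.81, 5.22 and 5.76 with differences of -0.10 (resting) and 0.54 (restimulated), the largest difference between states of any member (0.64). Mxi1, which antagonizes Myc, went the other way, with levels of 3.15, 3.05, 2.76 and 2.21 and differences of -0.11 and -0.55.

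Higd1a, a mitochondrial protein induced by hypoxia, differed by -0.49 and -0.24, the mitophagy receptors Bnip3 and Bnip3l by -0.23 and -0.13 and by -0.28 and -0.05, and Ak4, a mitochondrial adenylate kinase, by -0.29 and -0.28. P4ha1, a subunit of collagen prolyl hydroxylase, was higher by 0.17 and 0.40. P4ha2, a subunit of the same kind, differed by -0.26 and 0.07, and the histone demethylase Kdm3a by 0.07 and 0.13. Ero1l (Ero1a in RefSeq), an oxidase of the endoplasmic reticulum, differed by 0.08 and -0.22, and Vegfa, the vascular growth factor, by 0.15 and -0.25. No member of this group reached 2-fold in either state.

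Over the difference between states, 27 of 38 members lay above 0, with a median of 0.09. Over 11518 genes above background on all 4 arrays the median was 0.01, and 52.5% lay above 0. No member reached 2-fold, against 1.22% of these genes (0.738% higher and 0.478% lower). For 12 of the 14 glycolytic enzymes the decrease with SH-2251 was smaller or absent in restimulated cells, with a median difference between states of 0.17, less than the technical SD of 0.289.

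The median difference with SH-2251 over all genes was below 0 in every range of signal, and its size differed between them. In the dimmest range, below -4, which held no member, it was -0.14 in resting and -0.18 in restimulated cells. Of 342 genes with a mean log2 level above 6, the median difference was -0.14 in resting and -0.11 in restimulated cells, while 3124 genes with a mean level between 0 and 2 had medians of -0.00 and -0.03. Among the genes above 6, 84.2% were lower with SH-2251 in resting and 76.3% in restimulated cells. The 7 members above 6 had medians of -0.31 and -0.28. Between 4 and 6, 14 members had medians of -0.37 and -0.17, beside -0.13 and -0.10 over 1087 genes. Between 2 and 4, 10 members had medians of -0.16 and -0.06, beside -0.07 and -0.07 over 2530 genes. After subtraction of the running median of the genes nearest in signal, 28 members were lower in resting and 26 in restimulated cells, with medians of -0.15 and -0.09. Of the 14 glycolytic enzymes, 12 were still lower in each state, with medians of -0.18 and -0.10.

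**Figure D3:**
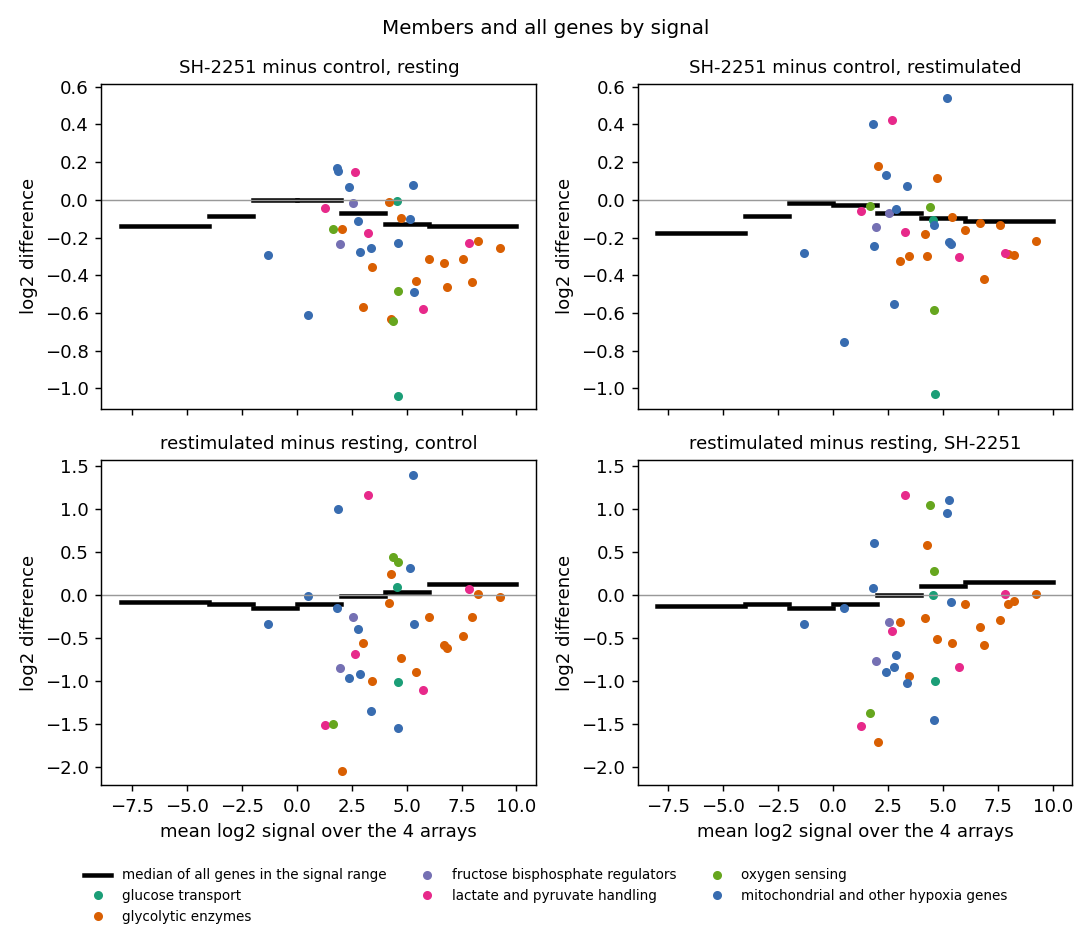
Difference of each gene (points, coloured by role) against its mean log2 signal over the 4 arrays, for the 4 comparisons, with the median of all genes in each range of signal as black lines (the last range is drawn up to 10). With SH-2251 the lines for the brightest genes lie at -0.14 and -0.11 and most glycolytic enzymes lie below them.

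Markers of T cells, of other cells and of stress moved between the same arrays, and their part in these shifts was not tested. All 6 T cell markers were lower with SH-2251 in resting cells, with a median of -0.22, and 3 of 6 in restimulated cells, with a median of -0.06. Of all genes 57.5% and 57.8% were lower. The T cell markers were all above background on every array. Their summed signal ran from 203 to 216 over the arrays, in multiples of the 75th percentile. Of 8 B cell markers, 7 were above background on all arrays and Pax5 was not on any, and their summed signal was 40.9 in control resting, 35.6 in SH-2251 resting, 33.0 in control restimulated and 45.8 in SH-2251 restimulated cells, in multiples of the 75th percentile. Of these 7, 4 were higher and 3 lower with SH-2251 in resting cells, and 5 were higher and 2 lower in restimulated cells. The 2 past 2-fold were Cd74 and Ms4a1, higher with SH-2251 in restimulated cells by 1.19 and 1.21. Cd8a was higher by 1.45 and 0.97, the NK markers Ncr1 and Klrb1c were not above background, and the summed signal of the 4 NK and CD8 markers with a probe ran from 0.299 to 0.535. Of 5 myeloid markers, Lyz2, Itgam and Itgax were not above background, and the sums lay between 0.145 and 0.202. Hba-a1, a globin of red cells, was higher with SH-2251 by 1.15 and 1.28. Of the 4 stress markers, Trib3 and Ddit3 were higher with SH-2251 in resting cells, by 1.75 and 1.30, and their list summed to 17.3 in control resting against 52.4, 55.2 and 55.3 on the other arrays.

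More of the members were past 2-fold after restimulation than with SH-2251, as were more of all genes. In control cells, 3 members were at least 2-fold higher after 4 h, where 7.24% of all genes were, and 8 at least 2-fold lower, where 7.34% were. In SH-2251 cells, 3 were at least 2-fold higher and 6 lower, where 7.09% and 6.98% of all genes were. In either direction 11 members were past 2-fold in control and 9 in SH-2251 cells, where 14.6% and 14.1% of all genes were. The median difference was -0.37 in control and -0.32 in SH-2251 cells, beside -0.06 over 12758 and -0.05 over 12613 genes. Without and with the compound 28 members were lower, 26 of them in both, where 54.8% and 53.6% of all genes were lower. The 2 differences shared a sign in 89.5% of members, near the 86.5% of 11518 genes above background on all 4 arrays. At least 2-fold lower in both were Slc2a3, Pfkm, Pdk1, Bnip3, Egln1 and P4ha2, and at least 2-fold higher in both were Slc16a1 and Ero1l. The shares of all genes lower in both and past 2-fold in both were not counted. The restimulation comparisons use the same 4 arrays as the comparisons with SH-2251. The values of a gene in the different comparisons are therefore not independent.

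The 250 bases before the start site are shown for Pdk1, Bnip3, Egln1, P4ha2, Slc16a1 and Ero1l, the genes past 2-fold in both treatments that moved together, apart from Pfkm, which has 4 start sites in the table, and Slc2a3, which has no entry. Of the 2 start sites of Pdk1 the one furthest upstream is shown. Sequences are those of RefSeq on GRCm38.p6, read 5′ to 3′ on the strand of the gene. Capitals mark ACGTG, the core of the hypoxia response element, and GCGTG, its variant, on either strand, so that CACGT and CACGC are the same letters read on the other strand. The palindrome CACGTG, the E-box that Myc is known to bind, holds ACGTG on both strands.
Pdk1, chr2:71872974-71873223, plus strand: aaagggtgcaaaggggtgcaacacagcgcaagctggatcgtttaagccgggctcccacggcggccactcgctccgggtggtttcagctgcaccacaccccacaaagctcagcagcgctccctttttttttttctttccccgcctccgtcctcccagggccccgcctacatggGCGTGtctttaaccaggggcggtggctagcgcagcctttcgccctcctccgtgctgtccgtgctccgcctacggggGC
Bnip3, chr7:138909507-138909756, minus strand: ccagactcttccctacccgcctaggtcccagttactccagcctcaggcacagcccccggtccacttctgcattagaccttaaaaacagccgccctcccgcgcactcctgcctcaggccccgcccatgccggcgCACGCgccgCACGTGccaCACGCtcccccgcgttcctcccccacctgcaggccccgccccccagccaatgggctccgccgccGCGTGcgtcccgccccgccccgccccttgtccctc
Egln1, chr8:124949255-124949504, minus strand: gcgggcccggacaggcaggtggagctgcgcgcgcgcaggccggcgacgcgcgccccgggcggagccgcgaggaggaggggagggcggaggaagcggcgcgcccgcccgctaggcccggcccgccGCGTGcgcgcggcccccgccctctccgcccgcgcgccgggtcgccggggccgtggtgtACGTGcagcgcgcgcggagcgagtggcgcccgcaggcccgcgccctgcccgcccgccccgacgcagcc
P4ha2, chr11:54100674-54100923, plus strand: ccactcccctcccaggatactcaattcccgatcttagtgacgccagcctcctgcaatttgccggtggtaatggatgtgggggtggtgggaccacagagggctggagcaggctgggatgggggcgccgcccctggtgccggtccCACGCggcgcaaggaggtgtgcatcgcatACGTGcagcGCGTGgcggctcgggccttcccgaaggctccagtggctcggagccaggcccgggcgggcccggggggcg
Slc16a1, chr3:104638414-104638663, plus strand: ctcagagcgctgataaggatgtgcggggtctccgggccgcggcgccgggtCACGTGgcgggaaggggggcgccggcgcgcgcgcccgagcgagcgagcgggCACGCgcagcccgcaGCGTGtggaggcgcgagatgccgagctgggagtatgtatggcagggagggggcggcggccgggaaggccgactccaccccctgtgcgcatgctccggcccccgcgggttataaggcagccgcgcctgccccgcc
Ero1l, chr14:45318573-45318822, minus strand: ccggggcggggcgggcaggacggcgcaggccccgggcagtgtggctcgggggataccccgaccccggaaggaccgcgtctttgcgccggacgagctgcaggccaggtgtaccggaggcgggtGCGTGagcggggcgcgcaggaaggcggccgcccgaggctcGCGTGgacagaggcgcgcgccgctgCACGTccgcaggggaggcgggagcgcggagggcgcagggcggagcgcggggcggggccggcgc
The capitals at the end of Pdk1 open a GCGTG that runs past the start site.

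These letters stood before genes that were higher and before genes that were lower. Bnip3, which was lower after restimulation, and Slc16a1, which was higher, each held a CACGTG, whose first base lay 108 bases before the start in Bnip3 and 200 in Slc16a1. Egln1 and Ero1l each held ACGTG once, 68 and 63 bases before the start. Pdk1 had no ACGTG and GCGTG only. Windows of 300 bases, 250 before to 50 after a start, were found for 35 of the 38 members (56 windows), with no entry for Slc2a3, Bnip3l and Ndrg1. ACGTG lay in 30 of the 56 (53.6%), against 25.6% of 11833 windows of genes above background on all 4 arrays and 19.6% of all 32851 windows. GCGTG lay in 58.9%, against 49.4% and 32.4%, and CACGTG in 12.5%, against 9.93% and 7.15%. The members' windows were also richer in G and C, with a median of 64.5% against 60.3% and 52.7%. These matches are descriptions of letters, many of the members were listed as HIF targets to begin with, and binding was not measured.

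Of these genes, Bnip3, Pdk1, Egln1 and P4ha2 had lower levels after restimulation on both pairs of arrays. Bnip3, the mitophagy receptor, had log2 levels of 5.48 in control resting, 5.25 in SH-2251 resting, 3.93 in control restimulated and 3.79 in SH-2251 restimulated cells, 2.93-fold lower without and 2.74-fold lower with SH-2251. Both resting arrays lay above both restimulated ones by more than 1. Pdk1 had levels of 2.04, 2.00, 0.53 and 0.48 in the same order, with differences of -1.51 and -1.53, and its second probe gave -1.95 and -1.79. Egln1 had levels of 2.46, 2.31, 0.96 and 0.93, with differences of -1.50 and -1.38. For Pdk1 and Egln1, the resting arrays differed by no more than the technical SD, as did the restimulated ones.

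P4ha2 had levels of 4.09 in control resting, 3.84 in SH-2251 resting, 2.74 in control restimulated and 2.81 in SH-2251 restimulated cells, with differences of -1.35 and -1.02. Kdm3a, a demethylase that HIF-1 induces, had levels of 2.83, 2.89, 1.86 and 1.99 and was just short of 2-fold (-0.96 and -0.90). Bnip3l had levels of 3.42, 3.15, 2.50 and 2.45, with differences of -0.92 and -0.70, and its second probe gave -1.38 and -1.15. The resting arrays lay above the restimulated ones for all 3 genes.

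Among the glycolytic enzymes 12 of 14 were lower after restimulation in either treatment, with medians of -0.52 in control and -0.31 in SH-2251 cells. Of all genes 54.8% in control and 53.6% in SH-2251 cells were lower. Pfkm, the muscle-type phosphofructokinase subunit, had log2 levels of 3.08 in control resting, 2.92 in SH-2251 resting, 1.03 in control restimulated and 1.21 in SH-2251 restimulated cells. It was 4.13-fold lower in control and 3.28-fold lower in SH-2251 cells, the largest decreases of any member, and ranked 53 of 12758 genes by decrease in control cells. Pfkl, the liver-type subunit, had levels from 4.11 in control resting down to 2.80 in SH-2251 restimulated cells and differences of -1.01 and -0.95. Pfkp, the platelet-type subunit, differed by -0.10 and -0.27, although its second probe gave -0.86 and -0.79, so that the size of its decrease depended on the probe.

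Hk1 was lower after restimulation by 0.89 and 0.55 on the log2 scale, whereas Hk2 was higher, by 0.25 in control and 0.58 in SH-2251 cells. Aldoc differed by -0.73 and -0.52, Tpi1 by -0.62 and -0.58, Pgam1 by -0.59 and -0.38, Eno1 by -0.56 and -0.32, and Gpi1 by -0.47 and -0.30. Gapdh and Pkm differed by -0.25 and -0.26 in control cells and by -0.10 each in SH-2251 cells. Aldoa differed by -0.03 and 0.01, and Pgk1 by 0.01 and -0.07. The enzymes thus ranged from a 4.13-fold decrease (Pfkm) to an increase of 0.58 on the log2 scale (Hk2). Pfkfb4, the regulator of phosphofructokinase that hypoxia induces, differed by -0.86 and -0.77, and Pfkfb3 by -0.26 and -0.31.

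The monocarboxylate transporters moved apart. Slc16a1 (MCT1) had log2 levels of 2.75 in control resting, 2.58 in SH-2251 resting, 3.92 in control restimulated and 3.75 in SH-2251 restimulated cells, and was 2.25-fold higher in either treatment. Its other probes gave 1.05 and 1.26 without the compound, and 1.11 and 1.22 with it. Slc16a3 (MCT4) was 2.16-fold lower in control cells and 1.78-fold lower in SH-2251 cells. Ldha differed by 0.07 and 0.02, and Ldhb by -0.69 and -0.42.

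Ero1l and Vegfa were higher after restimulation. Ero1l had levels of 4.62 in control resting, 4.69 in SH-2251 resting, 6.02 in control restimulated and 5.80 in SH-2251 restimulated cells, 2.65-fold and 2.15-fold higher. Its second probe gave 1.18 in control and 0.98 in SH-2251 cells, so that the SH-2251 value lay at the 2-fold limit. Vegfa had levels of 1.38, 1.53, 2.38 and 2.14, with differences of 1.00 in control and 0.60 in SH-2251 cells. Its probe was spotted 10 times, with SDs between spots of 0.022 to 0.068, and its other 3 probes gave 0.93 to 1.05 in control cells.

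Hif1a was 1.36-fold higher after restimulation in control cells and 2.07-fold higher in SH-2251 cells, where it started from a lower level. Egln3 differed by 0.38 and 0.28, and Ndrg1 by 0.32 and 0.95. Slc2a1 (0.09 and -0.00) and Ankrd37 (-0.01 and -0.15) lay within the technical SD. Mxi1 differed by -0.39 and -0.83, Higd1a by -0.34 and -0.08, Ak4 by -0.34 and -0.33, and P4ha1 by -0.15 and 0.08. Over the 38 genes the restimulation differences had a Pearson r of 0.952 between treatments and the SH-2251 differences one of 0.660 between states. Across all 11518 genes the same values were 0.919 and 0.771, and genes are not independent replicates.

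**Figure D4:**
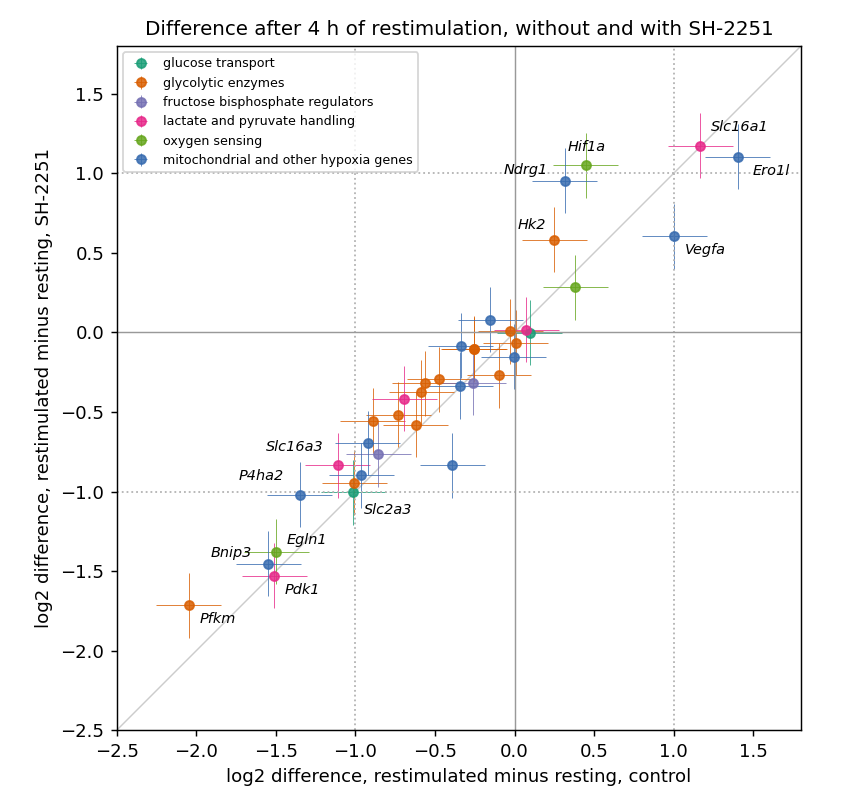
Difference of each gene after 4 h of restimulation, in control cells (horizontal) and SH-2251 cells (vertical), on the log2 scale and coloured by role. Bars show 1 technical SD, not replicate error, and dotted lines mark 2-fold. The points lie along the diagonal, from Pfkm at -2.05 and -1.71 to Slc16a1 and Ero1l above 1 on both axes.

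Neighbouring pathways were followed with lists of other genes. Of 23 further glycolysis and sugar transport genes, none was past 2-fold with SH-2251 in either state, with medians of 0.00 over 19 and 0.02 over 17 compared. After restimulation of control cells 2 of 19 were higher and 3 lower, and of SH-2251 cells 2 of 18 higher and 4 lower. Pgm1, which links glycogen to glycolysis, was lower by 1.53 and 1.44 on the log2 scale, and Tigar, a fructose bisphosphatase, was higher by 1.32 and 1.20. Of 9 pentose phosphate genes compared, none was past 2-fold in any comparison, and G6pdx, which commits glucose 6-phosphate to that pathway, differed by 0.29 and 0.76 with SH-2251. Of the genes of pyruvate entry into mitochondria, Pcx, the pyruvate carboxylase, was past 2-fold after restimulation (-1.33 and -1.15) and none was with SH-2251.

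Of 10 genes of gluconeogenesis and glycogen compared, none was past 2-fold with SH-2251, and 4 were at least 2-fold lower after restimulation of control cells and 2 of SH-2251 cells. Pygl, a glycogen phosphorylase, differed by -1.63 and -1.38, and Gys1, a glycogen synthase, by -1.17 and -1.25. Both the synthesis and the breakdown of glycogen were represented among the genes that were lower, with the branching enzyme Gbe1 (-1.09 and -0.86).

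Of the other regulators of oxygen sensing, none was past 2-fold with SH-2251. Epas1, the alpha subunit of HIF-2, had a pattern like that of Hif1a, with log2 levels of 6.00 in control resting, 5.16 in SH-2251 resting, 6.38 in control restimulated and 6.28 in SH-2251 restimulated cells. Its differences with SH-2251 were -0.84 and -0.10. Siah2, a ligase that removes Egln proteins, was higher after restimulation by 1.63 and 1.25.

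Other HIF target genes moved in both directions. This list shares genes with the earlier ones, among them Gys1 and Gbe1, which were counted in each, so the lists are not separate. With SH-2251, 2 of 29 compared were at least 2-fold higher and 2 lower in resting cells, and none of 30 higher and 4 lower in restimulated cells. Among those that were lower was Angptl4, an inhibitor of lipoprotein lipase, which differed by -1.31 and -1.14. Tfrc, the transferrin receptor, and Car2, a carbonic anhydrase, were higher in resting cells by 1.29 and 1.49. After restimulation of control cells 7 of 30 were higher and 7 lower, among them Car2 (3.50), Bhlhe40 (1.93), Zfp395 (-2.74) and Kdm4b (-1.76). In the difference between states 3 of 28 were past 2-fold, namely Adm (1.42), Bhlhe40 (1.30) and Tfrc (-1.13), where 1.22% of all genes were.

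Of 24 regulators of T cell metabolism compared, 1 was past 2-fold with SH-2251, namely Mycn, which was lower in both states and not above background on 1 array (SH-2251 resting). Myc differed by -0.46 and -0.26 in the 2 states, and Mtor by 0.05 and -0.13. After restimulation Txnip, which restrains glucose uptake, was lower by 1.82 and 1.90, Mxd3, a Myc antagonist, was lower by 1.60 and 1.79, and Rheb, which activates mTOR, was higher by 1.52 and 1.08. With SH-2251 Txnip differed by -0.17 and -0.25.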

How the data were processed

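Single-colour Agilent 44K whole mouse genome arrays, 1 for each of 4 conditions, were analysed. The authors deposited the scanner output of Feature Extraction 10.7.3.1, whose processed intensities were already background-corrected, and a table of log2 values normalized with the Subio Platform, which were within 0.01 of the log2 intensities minus a constant per array (close to the 75th percentile) on 99.6% to 99.7% of probes. Groups were taken from the labels.

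Control spots and outlier spots (77 to 106 per array) were left out. Intensities were converted to log2, the 75th percentile of each array was subtracted, and spots of a probe were averaged. Probes were named by RefSeq accession through a table of GRCm38.p6, used for names since the array files cite mm9: 27198 of 41174 probes (66.1%) matched. The brightest probe stood for a gene. A gene was compared if above background on at least 1 array of the pair, with the dim side set to the lowest signal well above background or its own signal if higher, which gives a bound. Between 56.0% and 56.7% of probes were well above background, and none was saturated.

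No test was made. Genes named are all members, genes of the other lists past 2-fold with up to 3 contrasts, and the markers, though some of them are not reported here. Members and lists were chosen with earlier results of these data known. Other scalings, normexp (offset 50, then quantile normalization), filters, probes and thresholds were tried. Normexp without spots of uneven background and removal of the trend with signal were added after the data were seen. The procedure was tested on simulated data. Python 3.11.15 (numpy 2.4.6, pandas 2.3.3, matplotlib 3.10.9) and R 4.3.3 (limma 3.58.1) were used.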

Additional observations from a re-analysis of the deposited data

How the results depend on the processing

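The sign of the members' median was the same under all alternatives in every comparison. With SH-2251, over 12 settings, 28 to 33 members were lower in resting cells (median -0.26 to -0.13) and 26 to 31 in restimulated cells (median -0.16 to -0.08), and 12 to 14 and 11 to 12 of the glycolytic enzymes. The 1 member at least 2-fold lower with SH-2251 (Slc2a3) became 0 in either state under median centring, quantile normalization, normexp with or without spots of uneven background, removal of the trend with signal, and a 3-fold threshold, with values from -1.04 to -0.91 in resting and -1.03 to -0.92 in restimulated cells. At 1.5-fold, 4 members were lower in resting and 2 in restimulated cells, where 7.45% and 7.15% of all genes were. At 3-fold, 142 of all 12684 genes in resting and 144 of 12623 in restimulated cells were lower with SH-2251. After restimulation, 16 control and 12 SH-2251 decreases and 5 SH-2251 increases passed 1.5-fold, as did 18.5%, 18.9% and 14.8% of all genes. In either treatment 1 decrease and 0 increases of members passed 3-fold. Of all genes, 194 decreases and 383 increases of 12758 did so in control cells, and 145 and 396 of 12613 in SH-2251 cells. The 3 members at least 2-fold higher in SH-2251 cells became 1 under quantile normalization, either normexp correction and removal of the trend, where Hif1a (0.88 to 1.05) and Ero1l (0.94 to 1.10) fell short. Hk1, Bnip3l and Vegfa in control cells and Pfkl, Slc16a3 and Bnip3l in SH-2251 cells also lay on either side of 2-fold. At 1.5-fold, 2 members (Hif1a and Ndrg1) were higher in the difference between states, as were 3.04% of all genes. Counts over all genes depended more on the setting: genes at least 2-fold lower with SH-2251 in resting cells numbered 368, 141 after normexp and 798 with no filter, and in restimulated cells 351, 112 and 950. The cause of these changes was not tested. No paired analysis was possible because each condition had 1 array. The replicate number was 1 in every group and names no pairs of cultures. With 1 array per condition, differences near the technical SD cannot be told from error within the arrays, and the spread between cultures is unknown.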
